A study of Mus musculus with 16 samples.

Results

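Angiotensin II (AngII) infusion was compared with saline infusion in the suprarenal aorta of wild-type mice. The suprarenal segment is the stretch of abdominal aorta above the renal arteries. The comparison took the 8 wild-type libraries of a series of 16, and it covered every gene in the count table. Of 29695 genes listed, 15984 passed the filter on low counts and were tested. The mice were male C57BL/6 wild type, and their ages were not given. An Alzet osmotic minipump under the skin delivered either saline (4 libraries) or AngII at 1000 ng/kg/min (4 libraries) for 5 days. The other 8 libraries came from Vamp8 knockout (KO) males under the same infusions, and they entered the fit to estimate the spread between libraries. Vessels were flushed with saline and stripped of surrounding tissue, and those with bleeding in the wall or gross damage had been left out by the submitters. The wild-type AngII group therefore holds only aortae without such lesions. Each group's 4 libraries are labelled as biological replicates, and p-values measure the spread between these libraries.

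AngII is the active peptide of the renin-angiotensin system. It acts mainly through the type 1 receptor, a Gq-coupled receptor on smooth muscle cells, and causes constriction, a rise in blood pressure and aldosterone release. In the aortic wall of mice, sustained infusion is known for growth of the media and adventitia, matrix deposition by fibroblasts and entry of monocytes. Cell division is read in RNA through genes that are switched on late in the cell cycle, in the G2 and M phases, when the spindle is built and chromosomes are separated.

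Wild-type libraries held 13284804 to 16636836 counts under saline and 13925508 to 16343026 under AngII (exact permutation p = 0.6, n = 4 per group, where 0.0286 is the smallest p possible). The mitochondrial share of counts was 8.33% to 17.7% under saline and 9.56% to 16.3% under AngII (exact permutation p = 0.743, n = 4 per group). Adjusted over 4 library measures, both p-values were 0.743. Contractile genes of smooth muscle summed to 15800 to 41280 CPM (counts scaled for library size) under saline and 22300 to 32480 CPM under AngII, so the labelled tissue carried its defining markers in every library. Vamp8, which was left intact in these mice, lay between 45.9 and 60.9 CPM in all 8 libraries. In a principal component analysis of 2000 genes the first component held 32.3% of the variance. On it AngII replicates 3 and 4 stood at -43.7 and -37.1, and the other 6 libraries between 1.90 and 35.5. The AngII group was therefore spread along this axis.

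AngII raised the RNA of the mitotic machinery. Of the 15984 genes tested, 70 (0.438%) were called higher under AngII and 1 (0.00626%) was called lower. A call means an edgeR quasi-likelihood adjusted p under 0.05 over all tested genes, with Benjamini-Hochberg adjustment. Of the 70, 48 belonged to lists of cell division genes, and a further 22 did not. All 48 division genes were higher in every AngII library than in any saline library, as were 20 of the other 22. Over all tested genes, AngII libraries lay wholly above saline in 587 (3.67%) and wholly below in 411 (2.57%), and the median log2 fold change was -0.01 with 47.8% of genes positive. At an unadjusted p under 0.05 there were 892 genes higher and 514 lower.

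**Figure D1:**
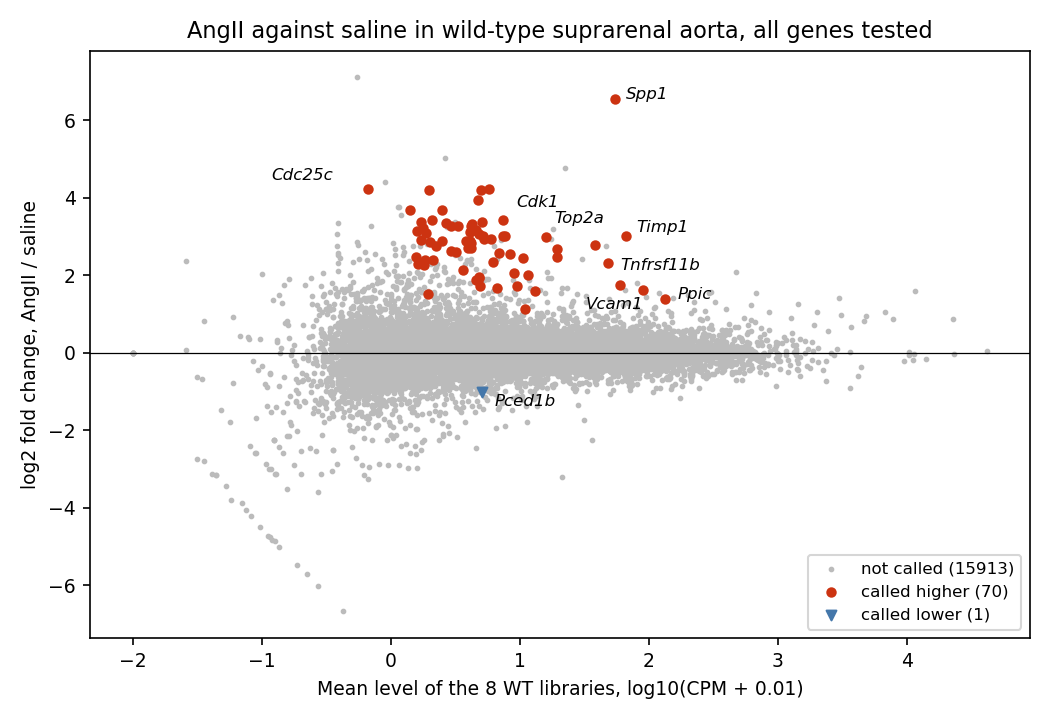
Each point is 1 of the 15984 tested genes in wild-type aorta; the x axis is its mean level as log10(CPM + 0.01) over the 8 wild-type libraries and the y axis its log2 fold change, AngII over saline. The 70 genes called higher (red) lie at log2 fold changes of 1.13 to 6.56, and Pced1b (blue) is the 1 gene called lower.

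The genes that moved together included several whose promoters are textbook examples of cell cycle control. Such promoters often carry a cell cycle homology region (CHR) and CCAAT boxes, and genes of the G1 to S transition often carry E2F sites. The 250 bases before the start were taken from RefSeq's promoter sequences (GRCm38.p6) for 5 genes: Cdk1 and Ccnb1, the kinase and cyclin of mitotic entry; Top2a; Aspm; and Hmgb2. The files' own build is GRCm39, per the submitters' processing notes, so these positions are not those of the count table's annotation. Capitals mark a match on either strand to CHR (TTTGAA or TTCGAA), to CCAAT, or to an E2F site (TTTCCCGC, TTTCGCGC, TTTGCCGC or TTTGGCGC). No marked match overlaps another in these windows.
Cdk1 (chr10:69352913-69353162, - strand): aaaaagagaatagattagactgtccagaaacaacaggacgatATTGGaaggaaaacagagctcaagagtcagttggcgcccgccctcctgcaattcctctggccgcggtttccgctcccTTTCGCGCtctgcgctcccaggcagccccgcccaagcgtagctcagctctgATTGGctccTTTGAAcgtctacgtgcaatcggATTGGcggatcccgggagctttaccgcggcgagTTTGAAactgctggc
Ccnb1 (chr13:100786487-100786736, - strand): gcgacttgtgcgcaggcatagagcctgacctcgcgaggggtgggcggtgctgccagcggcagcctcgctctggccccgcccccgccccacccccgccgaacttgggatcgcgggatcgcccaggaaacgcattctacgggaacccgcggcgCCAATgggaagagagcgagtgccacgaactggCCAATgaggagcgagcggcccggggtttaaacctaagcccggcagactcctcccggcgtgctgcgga
Top2a (chr11:99024190-99024439, - strand): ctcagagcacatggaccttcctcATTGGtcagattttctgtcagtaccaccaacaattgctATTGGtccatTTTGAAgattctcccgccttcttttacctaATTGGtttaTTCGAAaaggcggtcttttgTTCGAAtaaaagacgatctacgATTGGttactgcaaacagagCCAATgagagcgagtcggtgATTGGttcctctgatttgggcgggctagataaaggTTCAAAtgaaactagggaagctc
Aspm (chr1:139454523-139454772, + strand): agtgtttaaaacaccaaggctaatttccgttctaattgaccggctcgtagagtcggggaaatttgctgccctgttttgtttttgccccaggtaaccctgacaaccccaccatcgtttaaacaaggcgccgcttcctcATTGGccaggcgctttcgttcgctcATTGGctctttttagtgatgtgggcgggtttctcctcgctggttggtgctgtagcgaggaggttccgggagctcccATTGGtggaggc
Hmgb2 (chr8:57511593-57511842, + strand): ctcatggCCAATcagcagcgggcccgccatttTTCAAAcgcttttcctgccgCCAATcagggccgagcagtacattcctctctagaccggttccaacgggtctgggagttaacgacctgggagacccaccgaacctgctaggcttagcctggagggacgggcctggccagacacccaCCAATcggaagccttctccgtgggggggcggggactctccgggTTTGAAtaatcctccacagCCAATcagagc

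Top2a held 4 CHR and 6 CCAAT matches, and Hmgb2 held 2 and 4. Cdk1 held 2 CHR matches, 3 CCAAT matches and 1 E2F match, the last reading TTTCGCGC. Ccnb1 held 2 CCAAT matches and Aspm 3, and neither held a CHR or E2F match in this window. As a background, the promoters of 11549 tested genes were read (72.3% of 15983 symbols), with a mean of 1.28 starts per gene. A gene counted as holding a motif where any of its listed starts did, so these shares are per gene and not per window. Of these genes 14.8% held a CHR match, 40.1% a CCAAT match and 3.6% an E2F match. Only 52 of the 70 genes called higher matched the promoter table (74.3%), under the 80% set for comparing a gene set with that background, so no comparison was made for the called genes. The promoters shown are examples and do not stand for the set. A match is a run of letters, and binding of a factor was not measured.

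Entry into mitosis is driven by cyclin B with its kinase and by the phosphatases and kinases around them. Of 25 tested genes of mitotic cyclins, kinases and checkpoint, 9 were called higher and 16 were not, all 25 had positive log2 fold changes, and the median was 2.53. Cdk1 (ENSMUSG00000019942) had 0.949, 1.76, 1.53 and 0.819 CPM in saline replicates 1 to 4 and 6.73, 9.29, 17.2 and 20.9 CPM in the AngII replicates. The lowest AngII library held more than 3 times the highest saline library, and the groups did not overlap (3.41 log2 units, SE 0.46, adjusted p = 0.00981 by edgeR's quasi-likelihood test). Ccnb1 (ENSMUSG00000041431) had 0.271 to 0.913 CPM under saline and 4.33, 6.95, 11.6 and 12.7 CPM under AngII. Pbk, a kinase active in mitosis, had 0.256 to 0.881 CPM under saline and 5.22, 10.4, 14.8 and 12.8 CPM under AngII, a log2 fold change of 4.22 (SE 0.61). Cdc25c, the phosphatase that activates Cdk1, was near 0 under saline, at 0 to 0.102 CPM, and at 1.03 to 1.34 CPM under AngII. Ccna2, Ccnb2, Nek2, Aurkb and Melk were the other 5 called members of the list. They span cyclins A and B, a centrosome kinase and the kinase of the chromosomal passenger complex.

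The spindle and cytokinesis list held the most called genes. Of its 38 tested members 17 were called higher, all 38 were positive with a median log2 fold change of 2.45, and in 35 every AngII library exceeded every saline library. Aspm (ENSMUSG00000033952), which focuses microtubules at spindle poles, had 0.813, 0.783, 0.354 and 1.08 CPM under saline and 6.11, 6.42, 9.15 and 9.10 CPM under AngII. Its groups lay far apart and its AngII libraries were even (3.33 log2 units, SE 0.42, adjusted p = 0.00981 by edgeR's quasi-likelihood test). Prc1 (ENSMUSG00000038943), which crosslinks microtubules between the separating chromosomes, had 2.44, 1.5, 1.95 and 0.819 CPM under saline and 8.86, 13.4, 16.6 and 15.3 CPM under AngII. Iqgap3, a scaffold of the cell cortex, had 0.512 to 1.24 CPM and 4.60 to 9.99 CPM. Ckap2, a microtubule-associated protein, had 0.512 to 1.12 CPM and 5.01 to 13.7 CPM. The remaining called members included the kinesins Kif2c, Kif11 and Kif22, the Aurora A activator Tpx2, the centralspindlin subunit Racgap1, and Birc5 (survivin), a partner of Aurora B.

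Kinetochores tie chromosomes to the spindle. Of 32 tested kinetochore and centromere genes 10 were called higher, 31 were positive and the median log2 fold change was 1.73. Knl1 and Spc25, subunits of the outer kinetochore, had log2 fold changes of 2.76 and 2.89 (edgeR quasi-likelihood adjusted p = 0.0207 for each). The Ndc80 complex was called at all of its 4 subunits, Ndc80, Nuf2, Spc24 and Spc25. Cenpa, the histone variant that marks centromeres, was called with 2.51 to 8.29 CPM under saline and 11.7 to 17.7 CPM under AngII. Chromosome condensation and separation genes were called at 6 of 20, with a median of 1.06. Top2a (ENSMUSG00000020914), the topoisomerase that untangles replicated DNA, had 2.71, 4.18, 4.19 and 3.23 CPM under saline and 17.4, 25.1, 37.5 and 33.5 CPM under AngII. The groups did not overlap (2.99 log2 units, SE 0.43, adjusted p = 0.00981 by edgeR's quasi-likelihood test). Mki67, whose protein Ki-67 is the common stain for cycling cells, had 4.07, 7.44, 4.36 and 5.27 CPM under saline and 19.9, 26.3, 41.1 and 47.0 CPM under AngII (2.67 log2 units, SE 0.40, adjusted p = 0.0105 by edgeR's quasi-likelihood test).

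Genes of earlier cell cycle phases had smaller values. Of 42 tested DNA replication genes 3 were called higher, Rrm2, Cdc6 and Clspn, and the median log2 fold change was 0.47. Rrm2, the small subunit of the enzyme that makes deoxynucleotides, had 1.47 to 2.46 CPM under saline and 5.28 to 11.4 CPM under AngII. Cdc6, which loads the replicative helicase, had 0.768 to 1.36 CPM and 1.79 to 3.81 CPM. In homologous repair 2 of 22 were called, Brca1 among them, and the median was 0.86. In the 8 wild-type libraries alone edgeR called Rrm2 (adjusted p = 0.0433) and not Cdc6 (0.157), Clspn (0.0743) or Brca1 (0.0743). With the replicate number as a block it called Rrm2 (adjusted p = 0.0327) and Brca1 (0.0344) and not Cdc6 (0.0595) or Clspn (0.051). Among G1 cyclins and proliferation transcription factors 1 of 21 was called, Foxm1, the transcription factor of G2 and M phase genes, at 1.56 to 2.28 CPM under saline and 6.87 to 15.9 CPM under AngII (median of the list 0.57). None of 7 cyclin-dependent kinase inhibitors was called, and their median was 0.21 (0.069 without saline replicate 4). Whether the lists differed from each other was not tested. In the 8 division lists together 207 genes were tested, 193 were positive, 48 were called higher and 0 lower, and the median log2 fold change was 1.28. The lists were drawn up with earlier results of these libraries known, so their counts are not independent evidence of direction. In bulk tissue, more cells of a dividing type and more RNA per cell cannot be told apart.

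**Figure D2:**
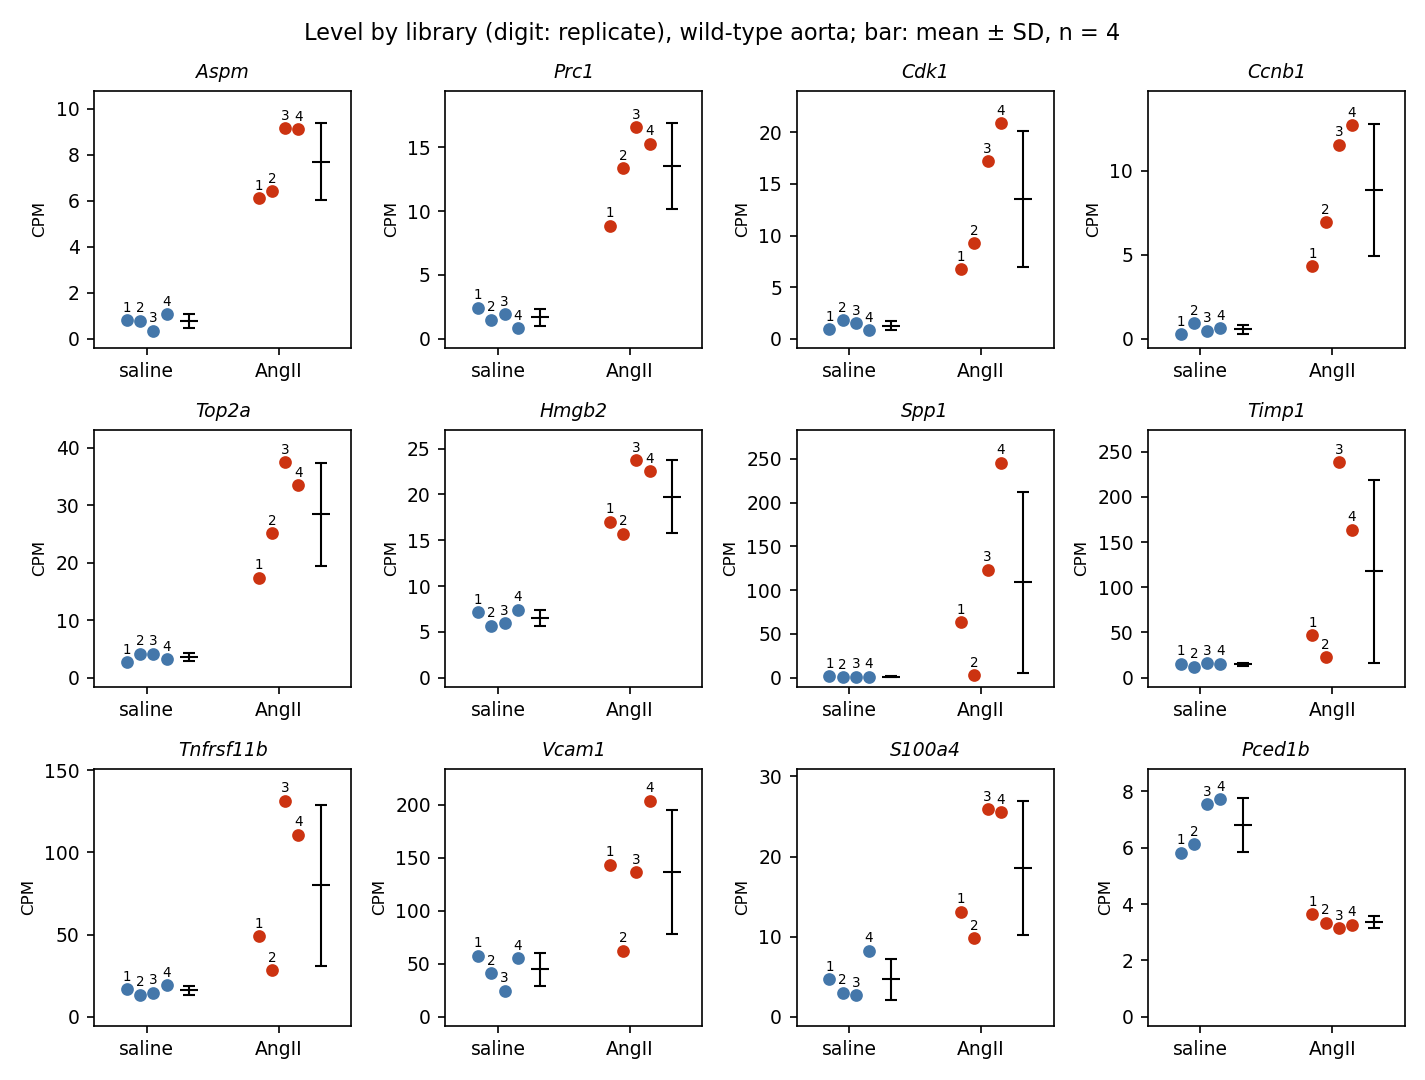
Level of 12 genes in CPM (y axis, linear, a separate scale per gene) in the 4 saline (blue) and 4 AngII (red) wild-type libraries; digits are replicate numbers and bars are mean ± SD, n = 4. In every gene shown except Pced1b, every AngII library stands above every saline library. In Hmgb2, Spp1, Timp1, Tnfrsf11b, Vcam1 and S100a4 AngII replicate 2 is the lowest AngII library.

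Of the 22 genes called higher outside the division lists, several are also known from dividing cells: Hmgb2, Knstrn, Spdl1, Pclaf, Pimreg, Dlgap5, Diaph3 and Mxd3. Hmgb2 (ENSMUSG00000054717), a chromatin protein abundant in proliferating cells, had 7.12, 5.68, 5.96 and 7.43 CPM under saline and 17.0, 15.7, 23.7 and 22.5 CPM under AngII. Its saline and AngII groups were each tight, and it was picked for description after its values were seen (1.59 log2 units, SE 0.22, adjusted p = 0.00981 by edgeR's quasi-likelihood test). ENSMUSG00000120992, the called gene with no symbol in the table, had 4.95 to 8.22 CPM and 16.7 to 46.7 CPM.

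The rest were secreted or surface proteins of the vessel wall and a few others. Spp1 (ENSMUSG00000029304), the matricellular protein osteopontin, had 2.03, 0.457, 0.944 and 1.18 CPM under saline and 63.2, 3.07, 123 and 245 CPM under AngII. AngII replicate 2 was just above the highest saline library and the other 3 were far above it (6.56 log2 units, SE 1.27, adjusted p = 0.0342 by edgeR's quasi-likelihood test). Limma voom with quality weights gave 5.01 and an adjusted p of 0.216 for Spp1. Timp1, an inhibitor of matrix metalloproteinases, had 15.3, 12.3, 15.9 and 15.3 CPM under saline and 46.8, 22.4, 238 and 164 CPM under AngII. Its saline libraries were close together and its AngII libraries spread over 10 times (3.00 log2 units, SE 0.60, adjusted p = 0.0415 by edgeR's quasi-likelihood test). By limma voom Timp1 had an adjusted p of 0.0772. Tnfrsf11b, the secreted decoy receptor osteoprotegerin, had 16.6, 13.4, 14.6 and 19.2 CPM under saline and 48.8, 28.5, 131 and 111 CPM under AngII. Vcam1, the adhesion molecule that holds leukocytes on endothelium, had 57.5, 41.0, 24.6 and 55.3 CPM under saline and 144, 62.2, 137 and 204 CPM under AngII. In both of these genes AngII replicate 2 was the AngII library nearest to saline. S100a4, a calcium-binding protein of fibroblasts and monocytes, had 2.71 to 8.24 CPM and 9.82 to 25.9 CPM (1.99 log2 units, SE 0.40, adjusted p = 0.0411 by edgeR's quasi-likelihood test). In the 8 wild-type libraries alone edgeR called none of Tnfrsf11b (adjusted p = 0.104), Vcam1 (0.209) and S100a4 (0.174). With the replicate number as a block it called Tnfrsf11b (adjusted p = 0.0422) and not Vcam1 (0.0653) or S100a4 (0.0876).

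Esm1, Ppic and Cd109 were picked for description after their values were seen. Esm1, a proteoglycan secreted by endothelial cells, had 7.19 to 15.6 CPM under saline and 34.0, 22.5, 161 and 48.8 CPM under AngII. Ppic, a peptidyl-prolyl isomerase of the secretory pathway, had 54.9 to 88.3 CPM and 112 to 276 CPM. Cd109, a surface protein that binds TGF-beta, overlapped, with 43.4 CPM in saline replicate 4 and 43.0 CPM in AngII replicate 2. The other called gene with overlapping groups was Serinc2, at 0.610 CPM in saline replicate 1 and 0.602 CPM in AngII replicate 2. Pced1b was the 1 gene called lower. It had 5.83, 6.13, 7.55 and 7.73 CPM under saline and 3.64, 3.34, 3.14 and 3.27 CPM under AngII, so the groups did not overlap (-1.02 log2 units, SE 0.19, adjusted p = 0.0289 by edgeR's quasi-likelihood test). In the 8 wild-type libraries alone edgeR called neither Pced1b (adjusted p = 0.0509) nor Serinc2 (0.144). With the replicate number as a block neither was called by edgeR (adjusted p = 0.051 for each).

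Division genes and the other called genes differed in which AngII library was lowest. In 42 of the 48 division genes AngII replicate 1 was the lowest AngII library, and in 6 it was replicate 2. In the other 22 genes replicate 2 was the lowest in 14 and replicate 1 in 8. The median gene of the division set stood at 4.51, 6.08, 9.72 and 9.69 times its saline mean in AngII replicates 1 to 4. For the other 22 genes these medians were 3.29, 2.52, 8.21 and 7.40. Replicates 3 and 4 were thus the high libraries in both sets, and this pattern was noticed after the values were seen.

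**Figure D3:**
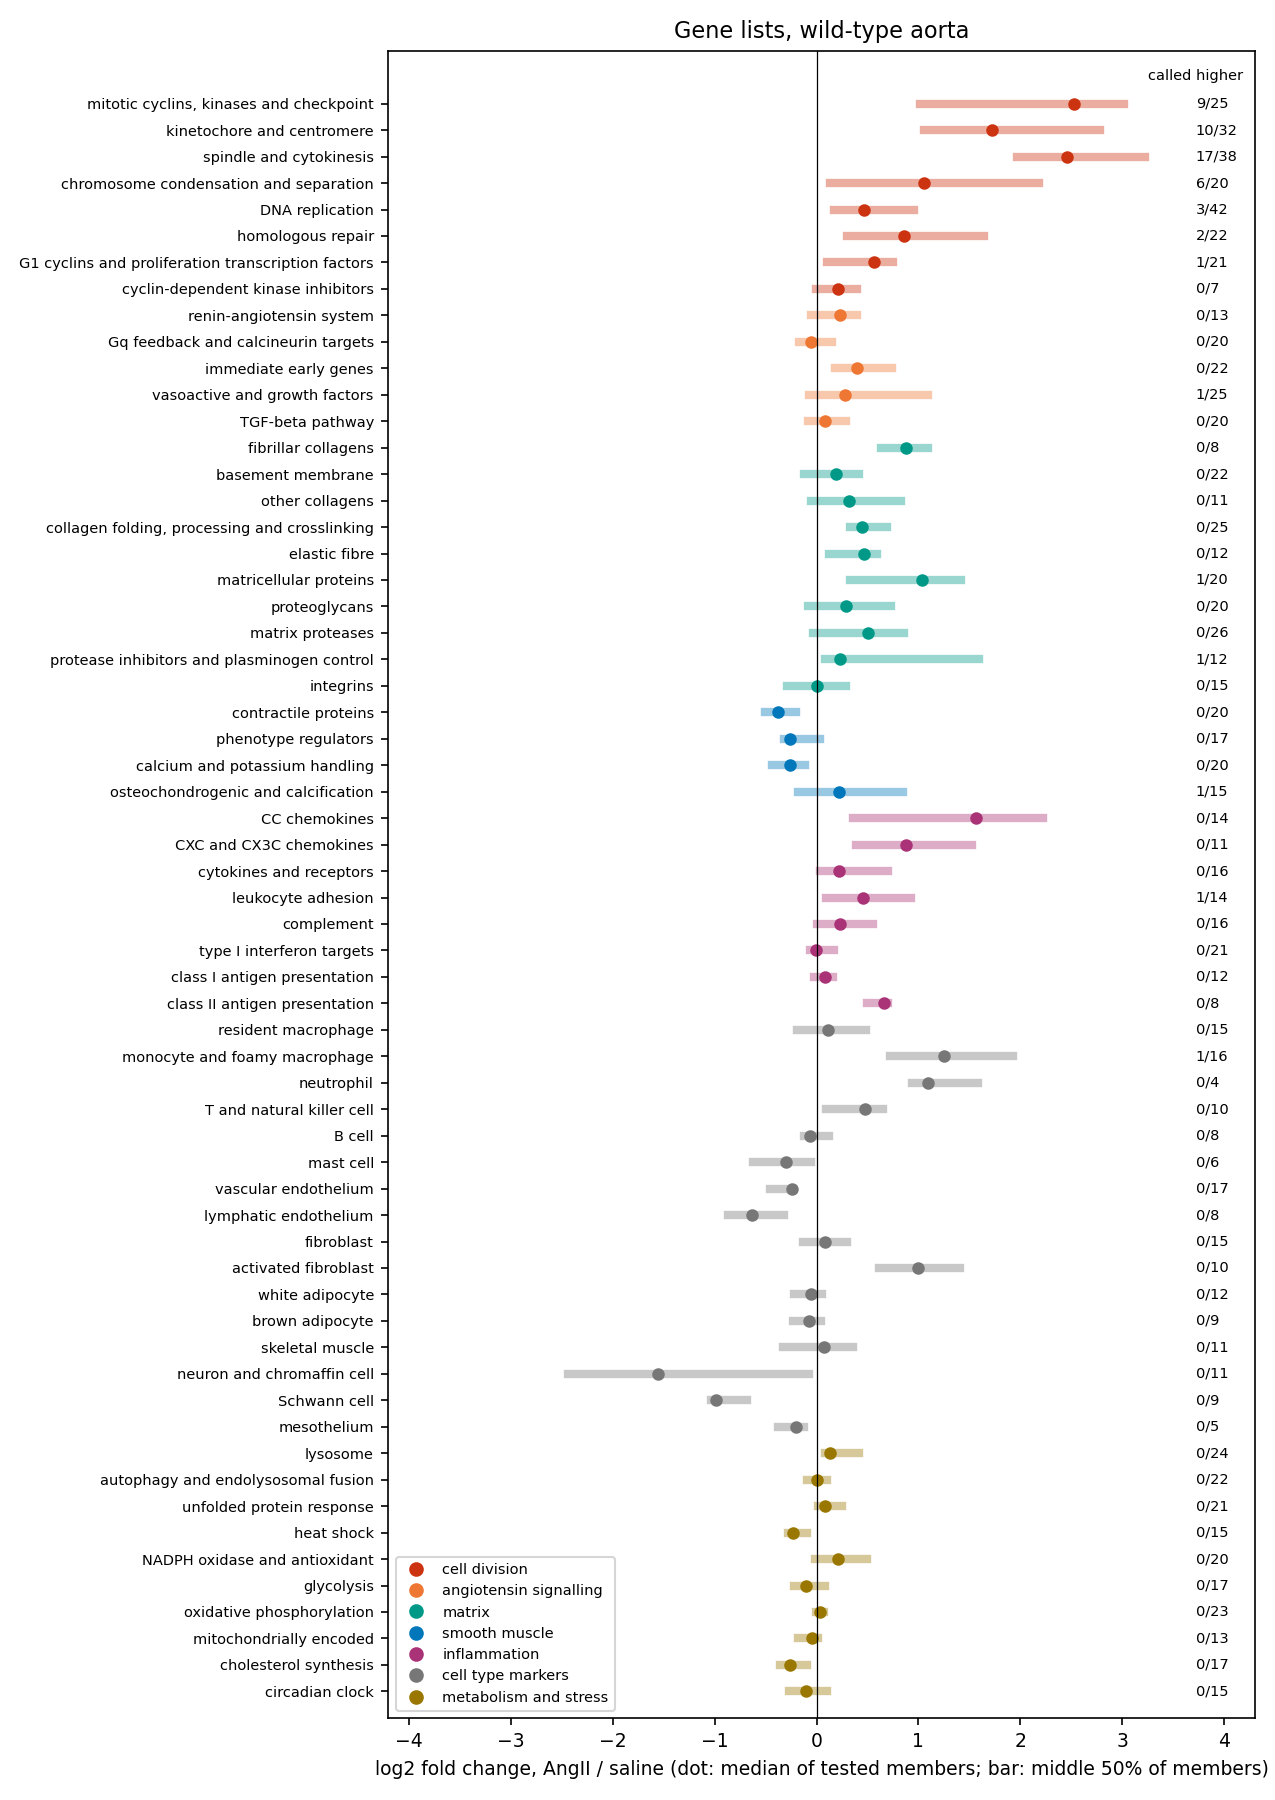
Log2 fold change, AngII over saline, of the tested members of 61 gene lists in wild-type aorta: dots are medians, bars span the middle 50% of members, and the fractions at the right give members called higher over members tested. Spindle and mitotic kinase lists lie near 2.5, CC chemokines at 1.56 and contractile proteins at -0.38.

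Matrix genes tended to have positive fold changes, but few passed. Over the 10 matrix lists 171 genes were tested, 129 (75.4%) were positive, 2 were called higher and 0 lower, and the median log2 fold change was 0.37. The called genes were Spp1 and Timp1. Eln, the elastin of the elastic lamellae, had 8919, 2556, 5943 and 5653 CPM under saline and 14442, 10112, 23345 and 21659 CPM under AngII. Its lowest AngII library lay above its highest saline library, but the test was not passed (1.59 log2 units, SE 0.39, adjusted p = 0.113 by edgeR's quasi-likelihood test). Lox, which crosslinks elastin and collagen, had 217 to 488 CPM and 488 to 1470.1 CPM (1.54 log2 units, SE 0.38, adjusted p = 0.12 by edgeR). Postn, the fibroblast protein periostin, had 912 to 1929 CPM and 2635 to 6759 CPM (1.42 log2 units, SE 0.36, adjusted p = 0.135 by edgeR). Cthrc1, a secreted protein of activated fibroblasts, had 0.922 to 2.37 CPM under saline and 6.18, 5.01, 27.6 and 132 CPM under AngII (4.76 log2 units, SE 1.17, adjusted p = 0.114 by edgeR). Col5a2, Col8a1, Plod2, Ccn5, Lum, Plau and Plaur likewise had AngII groups wholly above saline without passing.

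These matrix calls depended on the model. DESeq2 called Eln, Lox, Postn, Cthrc1, Col5a2, Col8a1, Col12a1, Plod2, Ccn5, Lum, Cd44, Ctsk, Plau and Plaur higher. With the level of adipocyte markers as a covariate, the edgeR fit called Eln (log2 fold change 1.67, adjusted p = 0.00716), Lox (1.53, adjusted p = 0.0176), Postn (1.43, adjusted p = 0.0431), Col5a2, Plod2, Ccn5, Lum and Ctsk. Limma voom gave smaller fold changes and called none of Eln (1.21, adjusted p = 0.0603), Lox (1.06, adjusted p = 0.121), Postn (1.05, adjusted p = 0.0785) and Cthrc1 (3.08, adjusted p = 0.191). Neither Spp1 nor Timp1, nor any other gene of the 10 matrix lists, was called by edgeR in the 8 wild-type libraries alone or with the replicate number as a block. There Spp1 had adjusted p-values of 0.0743 and 0.0628, and Timp1 of 0.169 and 0.0756. Adipocyte markers varied widely within groups: those of brown adipocytes summed to 581 to 6170 CPM under saline and 1130 to 3915 CPM under AngII, and those of white adipocytes to 3565 to 16630 CPM and 4424 to 11670 CPM. Saline replicate 2 held the highest brown adipocyte level and the lowest Eln, Lox and Postn levels. The part of these cells in the matrix values was not tested beyond that covariate.

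Inflammation lists gave 1 called gene, Vcam1, among 112 tested, of which 85 (75.9%) were positive with a median of 0.25. In CC chemokines 12 of 14 were positive, 0 were called and the median was 1.56. Ccl12, an attractant of monocytes, had 0 to 0.118 CPM under saline and 0.275, 0.267, 2.54 and 3.81 CPM under AngII (4.41 log2 units, SE 0.99, adjusted p = 0.0774 by edgeR). Ccl8 had 0.542 to 1.63 CPM and 2.47 to 4.74 CPM. Both were low, and both were called by DESeq2. CXC and CX3C chemokines had a median of 0.87, with all 11 positive. Cx3cr1, the fractalkine receptor of monocytes and macrophages, had 1.77 to 3.20 CPM under saline and 5.56, 3.21, 10.4 and 16.7 CPM under AngII. Type I interferon targets showed little, with 10 of 21 positive and a median of -0.01, which ran from -0.16 without AngII replicate 2 to 0.20 without saline replicate 2. Il6 and Il1b did not pass the filter on low counts, with 123 and 131 reads over the 8 libraries.

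Markers of myeloid cells differed by subtype in their medians, with no test between them. Monocyte and foamy macrophage markers had a median of 1.25, 13 of 16 positive and 1 called, S100a4. Resident macrophage markers had a median of 0.12, 8 of 15 positive and 0 called. With 1 library left out, the resident macrophage median ran from -0.08 without AngII replicate 3 to 0.47 without saline replicate 4, and the monocyte median from 0.98 to 1.81 without the same libraries. Adgre1, the macrophage marker F4/80, had 8.37 to 15.9 CPM under saline and 15.8, 11.8, 24.5 and 43.7 CPM under AngII. Lgals3, galectin-3, had 13.7 to 20.8 CPM and 21.5, 16.6, 48.6 and 40.1 CPM. AngII replicate 2 lay within the saline range for both genes, and replicate 1 did so for Adgre1. Only 4 of 10 neutrophil markers passed the filter, and the granule genes Mpo and Elane had 2 and 27 reads over the 8 libraries. The 4 tested markers were all positive, with a median of 1.10 and 0 called. They summed to 1.89 to 5.07 CPM under saline and 3.54 to 46.2 CPM under AngII. Lcn2 alone stood at 40.1 CPM in AngII replicate 3, against 1.34 to 6.19 CPM in the other AngII libraries. T and natural killer cell markers summed to 6.78 to 19.8 CPM under saline and 4.10 to 49.6 CPM under AngII. The top of that range was AngII replicate 1, where Cd4 stood at 8.24 CPM against 0.773 to 1.74 CPM in the other AngII libraries.

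**Figure D4:**
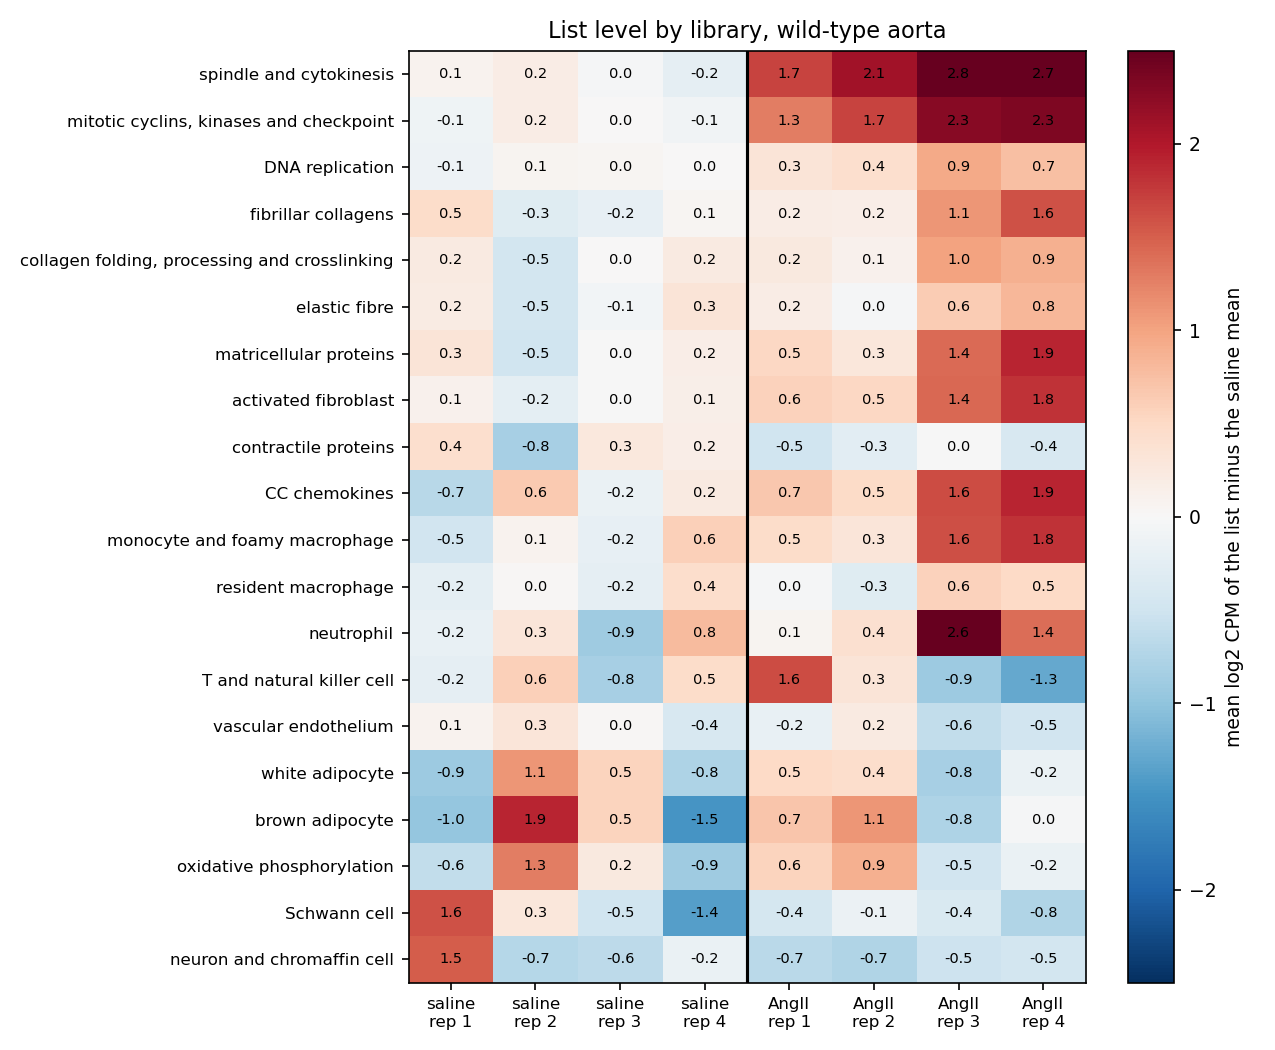
Mean log2 CPM of 20 gene lists in each of the 8 wild-type libraries, given as the difference from the mean of the 4 saline libraries (red above, blue below). Division lists are higher in all 4 AngII libraries, matrix and monocyte lists mostly in AngII replicates 3 and 4, brown adipocyte and oxidative phosphorylation lists peak together in saline replicate 2, and Schwann cell and neuron lists in saline replicate 1.

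The library levels of the lists showed the same split of the AngII group. Of 61 lists, 12 had all AngII libraries above all saline libraries and 0 had them all below, and 8 of the 12 were the division lists. In all 8 division lists, all 10 matrix lists and 6 of 8 inflammation lists, AngII replicates 3 and 4 both lay above replicates 1 and 2. Among the 16 lists of cell type markers they lay above in 6 and below in 8.

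Smooth muscle genes leaned the other way. Contractile proteins were negative in 18 of 20 (median -0.38, 0 called). Myh11, the smooth muscle myosin heavy chain, had 5880.1, 1993, 5239 and 5889 CPM under saline and 2446, 2909, 2779 and 1947 CPM under AngII (-0.91 log2 units, SE 0.37, adjusted p = 0.451 by edgeR). Limma voom with quality weights called Myh11 lower (-1.07 log2 units, adjusted p = 0.0368), and DESeq2 did not (adjusted p = 0.212). Saline replicate 2 lay within the AngII range and the other 3 saline libraries above it. Calcium and potassium handling genes were also negative in 18 of 20 (median -0.26, 0 called). Without saline replicate 2 the medians of both lists were -0.61 and -0.42. Itpr1, the calcium release channel of the endoplasmic reticulum, had 199 to 305 CPM and 135 to 215 CPM.

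The receptors of the infused peptide did not pass. Agtr1a, the main type 1 receptor gene of the mouse, had 4.07, 5.28, 5.25 and 2.56 CPM under saline and 6.66, 5.01, 3.74 and 4.82 CPM under AngII (0.24 log2 units, SE 0.64, adjusted p = 1 by edgeR). Agtr1b had 1.89 to 3.86 CPM and 1.37 to 4.82 CPM, and Agtr2, the type 2 receptor, was at 0.563 CPM or less under saline and at 1.43 CPM or less under AngII. Ace, the converting enzyme, had 142 to 371 CPM and 213 to 360 CPM. For all 4 genes the groups overlapped. Mas1, a receptor that counters the type 1 receptor, did not pass the filter, with 37 reads. Of 20 tested Gq feedback and calcineurin targets 8 were positive and 0 were called, with a median log2 fold change of -0.06. Plcb1 of that list was called lower by limma voom (-0.51 log2 units, adjusted p = 0.0486) and not by DESeq2 (-0.40, adjusted p = 0.364). Rcan1, a target of calcineurin signalling with the highest fold change of the list, had 36.2 to 58.9 CPM under saline and 72.2, 81.9, 151 and 251 CPM under AngII (1.44 log2 units, SE 0.39, adjusted p = 0.165 by edgeR). Igf1, a growth factor, had 64.2 to 92.8 CPM and 140, 135, 344 and 279 CPM (1.42 log2 units, SE 0.31, adjusted p = 0.0652 by edgeR). Both had groups that did not overlap. Immediate early genes, which respond within minutes to many stimuli and to handling of tissue, had a median of 0.39 with 19 of 22 positive and 0 called. AngII replicate 4 set that direction: the mean level of the list was 6.57 log2 CPM there, 4.46 to 4.94 in the other AngII libraries and 4.87 to 5.22 under saline, and without AngII replicate 4 the median was -0.26.

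Levels of the Schwann cell, neuron, vascular endothelial and oxidative phosphorylation lists varied within groups more than between them. Schwann cell and neuron lists had medians of -0.99 and -1.55 with 0 called, and their level was highest in saline replicate 1. Without saline replicate 1 the medians were -0.25 and -0.01. Vascular endothelial markers had a median of -0.24 with 2 of 17 positive and 0 called, and -0.45 without AngII replicate 2. Oxidative phosphorylation genes summed to 3614 to 16110 CPM under saline and 4601 to 12120 CPM under AngII and had a median of 0.03. That median was -0.24 without AngII replicate 2 and 0.66 without saline replicate 2, and limma voom gave 0.67.

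The 70 genes called higher were also read in the KO mice, against KO saline. Their log2 fold changes there were positive in 67, with a median of 1.10 and 0 called, beside a wild-type median of 2.87 that reflects how they were chosen. The difference between the genotypes, tested as the interaction, was called for 3 of the 15984 tested genes (0.0188%) and for 0 of the 70. Of the 70, 48 had an unadjusted interaction p under 0.05 by edgeR, beside 1793 of all 15984 tested genes. The 70 were chosen by their wild-type change, which enters the interaction, so the 48 partly reflect that choice. In KO, 40 of the 70 were positive at an unadjusted edgeR p under 0.05, and the same count over all tested genes was not made. Of all 15984 tested genes, 8 were called in KO. As the interaction was called for 0 of the 70, a difference between genotypes was not shown for any of these genes by edgeR. Aspm had 0.980 CPM in KO saline and 2.79 CPM in KO AngII, and Prc1 had 2.64 and 6.00 CPM. Hmgb2 had 12.2 CPM in both KO groups. The library labelled KO saline replicate 1 had a Vamp8 level in the wild-type range, at 53.3 CPM, and KO AngII replicate 4 also stood apart from its group. The 7 libraries labelled KO other than that of saline replicate 1 still held Vamp8 reads, 247 to 501 each, at 14.1 to 31.4 CPM against 45.9 to 60.9 CPM in wild type. Where in the gene these reads lie was not tested. Without KO saline replicate 1 and KO AngII replicate 4, 63 of the 70 were positive in KO with a median of 0.62, and 0 were called. In that fit 13 were positive in KO at an unadjusted edgeR p under 0.05. The interaction there had an unadjusted edgeR p under 0.05 for 64 of the 70, beside 1818 of all 16182 tested genes. It was called for 0 of the 70, and the choice of the 70 enters this count too.

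**Figure D5:**
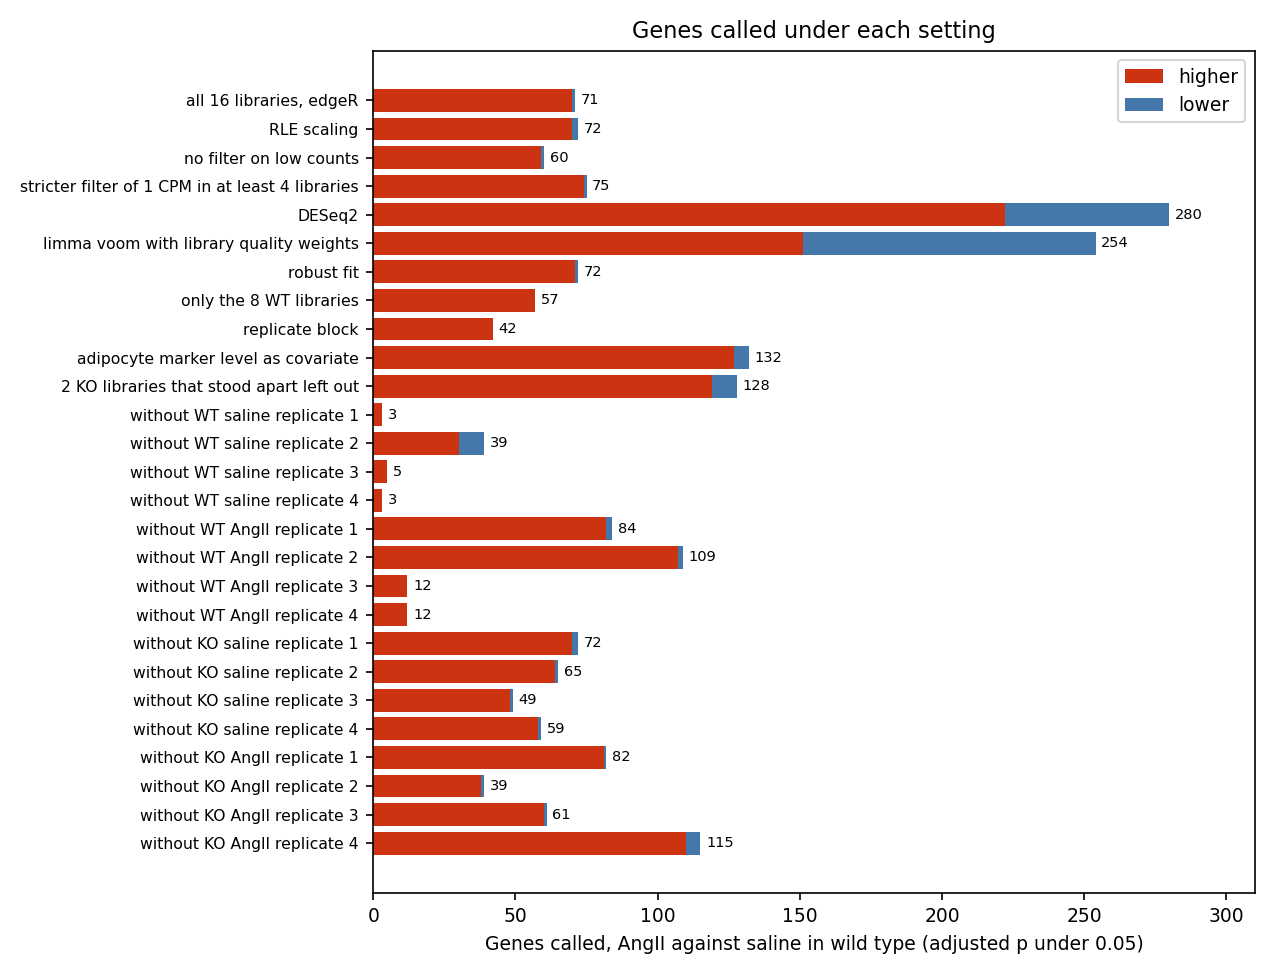
Number of genes called higher (red) and lower (blue) under AngII in wild-type aorta in each setting, as stacked bars from 0. The count is 71 in the 16-library edgeR fit, 280 with DESeq2 and 3 without WT saline replicate 1 or replicate 4.

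The number of calls moved with the libraries and the tool, while no called gene chosen by the naming rule changed sign in the fits run. It was 3 without saline replicate 1, 3 without saline replicate 4, 5 without saline replicate 3 and 12 without AngII replicate 3 or AngII replicate 4. Aspm, Hmgb2 and Prc1 were called in all 10 other settings and in all 16 fits that left out 1 of the 16 libraries. They were not called in every fit on wild-type libraries alone: of the 8 such fits with 1 library left out, those without saline replicate 3 or AngII replicate 3 called 0 genes by edgeR, with 1189 and 992 at an unadjusted p under 0.05. In these, the adjusted p was 0.0771 and 0.0572 for both Aspm and Prc1. Cdk1 and Knstrn were called in 14 of the 16 left-out fits on all libraries, and Ccnb1, Cdc25c, Ckap2, Iqgap3, Mki67, Pbk and Top2a in 13. Timp1 was called in 4, Vcam1 in 3 and Spp1 in 9. DESeq2 called 222 genes higher and 58 lower, among them all 71, and limma voom with quality weights called 151 and 103, among them 68 of the 71.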

How the data were processed

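Poly-A RNA of suprarenal aortae was sequenced in paired ends. The authors deposited raw read counts per gene, whole numbers without normalization, with 1 library per column. HISAT2 (2.0.5), featureCounts (1.5.0-p3), DESeq2 (1.20.0) and the build GRCm39 come from the submitters' processing notes. Neither the annotation release, the strand setting nor the handling of reads with several matches is given in the sources used here. Overlapping genes and near-identical copies are therefore uncertain. A symbol was missing for 2725 genes, and a name table filled 2502. All per-sample columns of the table were used (0 left out).

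Counts of all 16 libraries were filtered with edgeR's filterByExpr, scaled by TMM and fitted with 1 mean per group (12 residual degrees of freedom; R 4.3.3, edgeR 4.0.16, limma 3.58.1, DESeq2 1.42.0). The contrast was wild-type AngII minus saline, tested two-sided with the quasi-likelihood F test. Levels are TMM-normalised CPM, and list levels are means of log2 CPM with a prior count of 2. The biological coefficient of variation was 35.3%. In data simulated on these libraries, with 200 of 15726 genes changed, the fit recovered 46% of changes of 1 log2 unit, 80% of 2, 98% of 3 and 74% of -2, with 4 false calls among 153. The changed genes all had a mean above 1 CPM over the 16 libraries, so recovery below that level was not measured. Each gene was simulated independently, so variation that genes share between libraries was not covered.

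The named genes were Vamp8, 4 renin-angiotensin genes, up to 20 called genes with the largest rise or fall and a mean of at least 1 CPM in the higher group, and from each list up to 4 called members, or the 2 with the smallest p where fewer than 2 were called. The comparison, lists and rules were chosen with earlier results of these data known. Of 1065 listed genes 993 were tested, 63 were below the filter and 9 symbols were not matched. Lists were described by counts and medians, with no test. Alternatives were RLE scaling, no filter or a stricter one (1 CPM in 4 libraries), DESeq2, limma voom with quality weights, a robust fit, wild-type libraries alone, a replicate block, an adipocyte covariate and libraries left out. Some members of the lists are not reported here.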

Additional observations from a re-analysis of the deposited data

Results flagged for a closer look

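In 22 of the 410 groups of 4 libraries examined (5.37%), 1 library lay far from the other 3, and chance flags about 1 in 20. No explanation was tested for any of them.

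Saline replicate 1 stood apart by high Dbh, the enzyme that makes noradrenaline, at 3.05 CPM (others 0 to 0.177). It was also high in Serinc2 at 0.61 CPM (0.236 to 0.261). Saline replicate 2 had the lowest Myh11 at 1990 CPM (5240 to 5890), Ltbp2 at 87.7 CPM (102 to 104), Timp1 at 12.3 CPM (15.3 to 15.9) and mean level of matrix proteases at 4.81 log2 CPM (4.96 to 4.98). It had the highest Ppargc1a, a coactivator of thermogenic genes, at 66.5 CPM (5.84 to 15.2) and Hmox1 at 15.3 CPM (8.85 to 9.32). Saline replicate 3 was high in Depdc1a at 0.354 CPM (0.13 to 0.154) and Ncaph at 2.12 CPM (1.02 to 1.11). Saline replicate 4 was high in Itgax at 2.25 CPM (0.542 to 0.652), the clock gene Bhlhe41 at 17.0 CPM (8.55 to 9.02) and Agtr2 at 0.563 CPM (0 in the others), and low in lymphatic endothelial markers at 3.78 log2 CPM (4.56 to 4.66).

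AngII replicate 1 was high in Cd4 at 8.24 CPM (0.773 to 1.74), the mast cell protease Mcpt4 at 10.9 CPM (0.869 to 1.43), Krt18 at 6.93 CPM (2.67 to 2.85) and the mesothelial gene Upk3b at 2.33 CPM (0.334 to 0.601), and low in Cenpi at 1.37 CPM (2.85 to 3.07). AngII replicate 3 was high in Lcn2, lipocalin-2, at 40.1 CPM (1.34 to 6.19). AngII replicate 4 was high in Agtr2 at 1.43 CPM (0 to 0.206) and low in lymphatic endothelial markers at 2.93 log2 CPM (4.09 to 4.21).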

How the results depend on the processing

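Against 71 calls in the 16-library edgeR fit, DESeq2 gave 280, limma voom 254, the adipocyte covariate 132, the fit without both KO libraries that stood apart 128, and the replicate block 42, of which 38 were among the 71. With 1 library left out, from all 16 or from the 8 wild-type libraries, the count ran from 0 to 221, and it was 39 without KO AngII replicate 2 and 115 without KO AngII replicate 4. The 8 wild-type libraries alone gave 57 calls, 48 of them among the 71. In such fits the count was 0 without saline replicate 3 or AngII replicate 3, with 1189 and 992 genes at an unadjusted edgeR p under 0.05, where no other tool was run, and 221 (86 higher, 135 lower) without saline replicate 2. No called named gene changed sign. Same-numbered saline and AngII libraries had correlated deviations of -0.28, 0.381, -0.0813 and 0.0868, so the numbers were not taken to pair them. Interaction calls were 3, with 97 by DESeq2, 173 by limma voom and 2 to 12 with 1 library left out.

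Among genes chosen by the naming rule, signs turned only in those not called. By limma voom Agtr1b was -0.22, Ighm 0.0068, Ppargc1a 0.45 and Upk3b 0.17. With 1 library left out, log2 fold changes ran from -0.012 to 0.48 for Agtr1b, -0.41 to 5.86 for Agtr2, -0.55 to 1.18 for Cd4, -0.028 to 0.96 for Dio2, -0.20 to 0.0096 for Ighm, -1.14 to 0.042 for Ms4a1, -0.11 to 0.64 for Ndufa1, -0.21 to 0.80 for Ndufs1, -1.22 to 0.46 for Ppargc1a and -1.37 to 0.27 for Upk3b. The causes were not tested. Depth limits genes under about 1 CPM.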

Other observations

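Of the 993 listed genes tested, 13 (1.31%) were lower in every AngII library than in any saline library, a smaller share than the 411 (2.57%) of all 15984 tested genes, so these genes are given as values only. None passed edgeR's quasi-likelihood test. Sp7, the transcription factor osterix of bone-forming cells, had 1.08, 0.391, 1.47 and 1.79 CPM under saline and 0.0687, 0.201, 0.200 and 0.119 CPM under AngII (-2.95 log2 units, SE 0.71, adjusted p = 0.103 by edgeR). Its AngII levels are a few reads per library, and DESeq2 called it lower (adjusted p = 0.0137). Lep, the adipocyte hormone leptin, had 6.24 to 13.2 CPM and 2.41 to 4.95 CPM (-1.47 log2 units, SE 0.41, adjusted p = 0.194 by edgeR). Gsn, the actin-severing protein gelsolin, had 2357 to 3525 CPM and 1501 to 2197 CPM (-0.72 log2 units, SE 0.21, adjusted p = 0.217 by edgeR). Clec3b, a secreted protein of adventitial fibroblasts, had 240 to 287 CPM and 90.0 to 232 CPM. Gsn and Clec3b belong to the fibroblast list, in which 10 of 15 tested genes were positive, with a median of 0.08 and 0 called. Tgfbr3, the TGF-beta co-receptor betaglycan, had 81.8 to 103 CPM and 47.6 to 72.9 CPM, and Lama4, a basement membrane laminin, had 150 to 194 CPM and 111 to 134 CPM. DESeq2 also called Lep, Gsn, Tgfbr3 and Lama4 lower.

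Over the 10 lists of metabolism and stress, 0 of 187 tested genes were called, and members of some lists leaned to 1 sign. The list medians ran from -0.26 for cholesterol synthesis (4 of 17 positive) to 0.21 for NADPH oxidase and antioxidant genes (14 of 20 positive). The median of all tested genes was -0.01. None of 21 genes of the unfolded protein response was called (median log2 fold change 0.08, 16 positive). Nor was any of 24 lysosomal genes (0.13, 21 positive), 22 autophagy genes (0.01, 11 positive) or 15 circadian clock genes (-0.10, 5 positive). Heat shock genes were negative in 14 of 15, with a median of -0.23 and 0 called (-0.095 without saline replicate 3). Per2, a repressor of the clock, had 12.7 to 26.4 CPM under saline and 8.75 to 12.4 CPM under AngII (-0.77 log2 units, SE 0.31, adjusted p = 0.436 by edgeR).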
